A study of Homo sapiens with 10 samples.

Results

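SGK1 and 4 further genes of sodium retention, HSD11B2, SCNN1A, SCNN1B and ATP1B1, were followed across the T47D breast cancer cells of the study. They were chosen as corticosteroid-type targets that a progestin can share, with earlier results of these data known, and every probe set with one of these symbols as its only gene symbol was taken. This gave 6 probe sets of the 16376 in the table, or 5 genes of the 8904 that had a probe set of their own. ATP1B1 had 2 probe sets and each of the other genes had 1.

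The study hybridized RNA of 5 groups to Affymetrix U133 Plus 2 microarrays, with 2 arrays a group and 10 in all. The groups were PR-A K388R cells with R5020, PR-A K388R cells with vehicle, WT PR-A cells with R5020, WT PR-A cells with vehicle, and T47D-Y cells with vehicle. R5020 is a synthetic progestin, given at 10 nM for 24 h, and the vehicle was ethanol. T47D-Y is a subline of T47D that lacks progesterone receptor (PR), and both PR-A lines were made from it by stable transfection with an expression vector, from which PR-A was made. PR-A is the shorter receptor isoform, and K388R replaces the lysine to which SUMO is attached. Each receptor form was represented by 1 line, so that the mutation and the line cannot be told apart. R5020-treated T47D-Y cells and the probe sets of the receptor gene itself were not analysed here. The 2 arrays of a group are numbered replicates that the labels do not trace to separate cultures, and p-values therefore measure only the spread between these arrays, which may be technical.

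In the aldosterone-sensitive nephron, sodium enters the cell through the epithelial sodium channel (ENaC) and leaves it through the Na,K-ATPase. SCNN1A encodes the alpha and SCNN1B the beta subunit of ENaC, and ATP1B1 encodes the beta subunit that the pump needs to reach the membrane. SGK1 encodes a kinase that phosphorylates the ubiquitin ligase NEDD4L and so limits removal of ENaC from the surface. HSD11B2 encodes the enzyme that converts cortisol to cortisone and thereby keeps cortisol off the mineralocorticoid receptor. Progesterone, glucocorticoid, mineralocorticoid and androgen receptors bind closely related DNA elements, and SGK1 is a well known glucocorticoid and mineralocorticoid target.

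RefSeq start regions of SGK1 are shown first because SGK1 had the largest mean response to R5020 of the 5 genes in PR-A K388R cells. In WT PR-A cells the responses of SGK1 and HSD11B2 were close to each other and above the rest. Each window holds the 300 bases around an annotated start on GRCh38.p14, most of them before it, and SGK1 had 3 windows, all on the minus strand. Capitals mark AGAACA, one 6-base arm of the element that these steroid receptors bind, searched on both strands. The first line is the only one of the 3 windows with a match, and the second is shown for comparison.
SGK1 start region, chr6:134177812-134178111: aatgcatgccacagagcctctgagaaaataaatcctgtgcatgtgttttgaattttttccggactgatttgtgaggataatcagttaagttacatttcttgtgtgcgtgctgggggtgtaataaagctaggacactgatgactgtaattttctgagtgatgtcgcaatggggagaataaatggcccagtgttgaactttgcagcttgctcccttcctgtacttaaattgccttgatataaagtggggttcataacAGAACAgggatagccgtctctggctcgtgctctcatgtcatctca
SGK1 start region, chr6:134174817-134175116: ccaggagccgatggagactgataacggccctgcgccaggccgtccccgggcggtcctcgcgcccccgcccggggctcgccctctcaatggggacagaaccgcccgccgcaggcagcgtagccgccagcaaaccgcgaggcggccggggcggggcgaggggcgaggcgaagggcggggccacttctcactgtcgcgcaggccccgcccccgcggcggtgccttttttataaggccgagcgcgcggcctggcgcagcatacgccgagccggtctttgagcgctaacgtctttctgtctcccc
The match lay at bases 256 to 261 of the first window, just past the annotated start. AGAACA was present in 14.8% of all 35116 windows of 300 bases, so 1 match in 3 is a description of these windows and says nothing of binding. The window of SCNN1B (chr16:23302052-23302351, plus strand) and that of ATP1B1 (chr1:169106440-169106739, plus strand) held no AGAACA. The full element, searched as GNACA, any 3 bases and then TGTNC, reads the same on both strands and its first arm can overlap AGAACA. It was in none of these 5 windows and in 0.39% of all windows. The G and C content was 38% to 73.3% in the SGK1 windows, 70% in that of SCNN1B and 77% in that of ATP1B1. HSD11B2 and SCNN1A had no entry in the table of windows.

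SGK1 (chr6:134169256-134318112 on GRCh38.p14) was strongly induced by R5020 in both PR-A lines. The deposited values are on a log2 scale, on which 1 unit is a doubling of signal. The SGK1 level was 9.68 and 9.12 on the arrays of R5020-treated PR-A K388R cells, against 4.61 and 4.34 with vehicle. In WT PR-A cells it was 8.68 and 8.54 with R5020, against 3.86 and 4.75 with vehicle. In vehicle-treated T47D-Y cells the level was 6.50 and 6.57. The treated arrays of both lines thus lay far above all others, and T47D-Y lay between the treated and the untreated PR-A cells without overlap with either. In bulk RNA, fewer cells that express a gene and less of its RNA per cell cannot be told apart. As a rank within an array, the mean SGK1 percentile was 90.7 in R5020-treated and 46.9 in vehicle-treated PR-A K388R cells, 85.7 with R5020 and 44.5 with vehicle in WT PR-A, and 71.2 in T47D-Y cells.

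**Figure D1:**
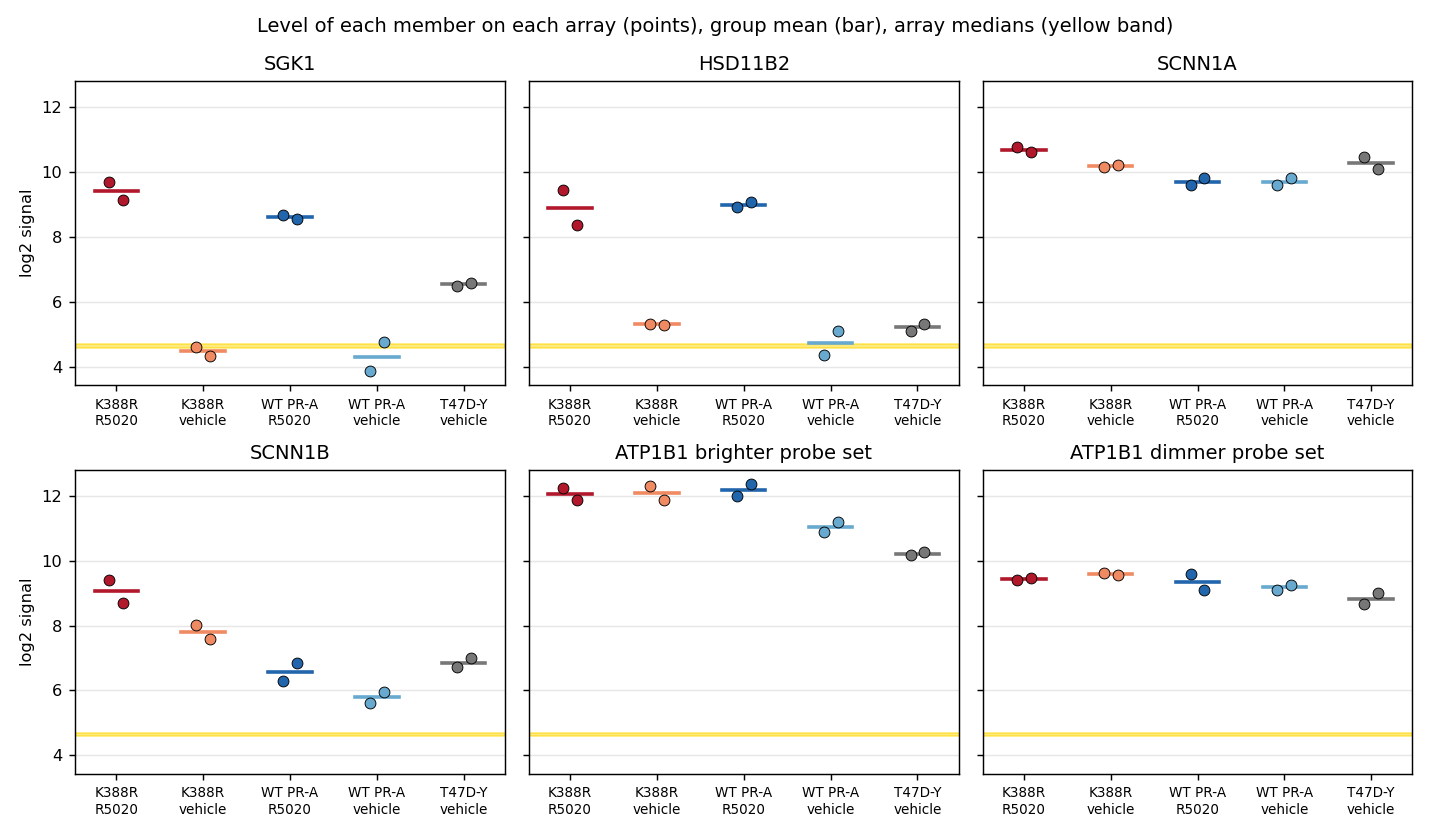
Log2 signal (vertical axis) of each member probe set on each of the 10 arrays (points), with the mean of the 2 arrays of a group (bar), and the range of the array medians, 4.59 to 4.69, as a yellow band. SGK1 and HSD11B2 stand apart with R5020 in both PR-A lines, SCNN1B is highest in PR-A K388R cells, and the brighter ATP1B1 probe set is lowest in T47D-Y cells.

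In the analysis of differences a probe set was called when its adjusted p in limma, corrected over all 16376 probe sets by the Benjamini-Hochberg method, was under 0.05 and its fold change at least 1.5. SGK1 rose by 4.92 on the log2 scale with R5020 in PR-A K388R cells (SE 0.27, 95% interval 4.32 to 5.53, limma adjusted p = 7.03e-05). In WT PR-A cells it rose by 4.31 (SE 0.27, 95% interval 3.70 to 4.91, limma adjusted p = 2.43e-05). The vehicle-treated levels averaged 4.48 in PR-A K388R and 4.30 in WT PR-A cells, under the array medians of 4.59 to 4.69, where little signal can be told from background, so the fold is given as a limit. With each array's level raised to at least its median, the mean SGK1 response to R5020 was 26.6-fold in PR-A K388R cells and 15.3-fold in WT PR-A cells. These are lower limits with respect to background only. The 95% intervals above reach below both of them. The K388R response minus the WT response was 0.62, with a 95% interval of -0.23 to 1.47 (limma adjusted p = 0.613), an interval that holds 0 as well as a more than doubled response. With unmoderated variances, where each probe set has only its own arrays to estimate the spread, the response of PR-A K388R cells was not called (adjusted p = 0.137) and that of WT PR-A cells was.

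The summed signal of the luminal epithelial markers KRT18, KRT19, EPCAM, CDH1, FOXA1, ESR1 and TFF1 also moved with the groups. Their summed linear signal was 35536 to 36852 in R5020-treated and 37663 to 37819 in vehicle-treated PR-A K388R cells, 23231 to 24613 with R5020 and 31718 to 32802 with vehicle in WT PR-A, and 38021 to 38057 in T47D-Y cells. The sum was thus lowest in R5020-treated WT PR-A cells. As a sum of linear signal it mainly follows the brightest markers, KRT18 and KRT19. With R5020 in these cells FOXA1, a transcription factor of luminal cells, fell by 1.46 (limma adjusted p = 1.59e-04), and the keratin KRT18 changed by -0.56 (limma adjusted p = 0.0118), which is under the minimum fold. The other markers were not called there. EPCAM changed by -0.07 (limma adjusted p = 0.900) and the brighter CDH1 probe set by -0.16 (limma adjusted p = 0.532). KRT19 changed by -0.47 (limma adjusted p = 0.0651), ESR1 by -0.61 (limma adjusted p = 0.0798) and TFF1 by -0.33 (limma adjusted p = 0.213). In PR-A K388R cells FOXA1 changed by -0.61 (limma adjusted p = 0.0698) and KRT18 by -0.01 (limma adjusted p = 0.983). The part of this shift in the R5020 responses of WT PR-A cells was not tested.

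Without hormone the SGK1 levels of the PR-A lines overlapped, and PR-A K388R minus WT PR-A was 0.17 (95% interval -0.43 to 0.77, limma adjusted p = 0.756). With R5020 both PR-A K388R arrays lay above both WT PR-A arrays, by 0.79 on average or 1.73-fold (95% interval 0.19 to 1.39, limma adjusted p = 0.085), which was not called. It was called with the arrays of those groups fitted alone (limma adjusted p = 0.0162), a fit that keeps the replicate block and leaves few residual degrees of freedom. Leaving out either vehicle-treated WT PR-A array also gave a call, but both omissions amount to the same fit. They take out of the estimate of spread the group whose SGK1 arrays differed most. These calls therefore add little to the main fit.

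The higher SGK1 level of the PR-negative line is one of the observations for which these genes were chosen, and it is given without a test. Relative to T47D-Y cells, the SGK1 difference on the log2 scale was -2.06 in vehicle-treated PR-A K388R cells and -2.23 in WT PR-A cells with vehicle. With dim levels raised to the array median as above, the mean SGK1 level was 3.66-fold lower in the first and 3.63-fold lower in the second. These are again limits with respect to background only. Without one or the other WT PR-A vehicle array, the log2 difference of WT PR-A cells was -1.68 or -2.79. With R5020 the direction was the opposite: the level exceeded that of T47D-Y by 2.86 in PR-A K388R cells (7.28-fold) and by 2.07 in WT PR-A cells (4.21-fold). The order of SGK1 levels was therefore R5020-treated PR-A K388R, R5020-treated WT PR-A, T47D-Y, and last the vehicle-treated PR-A K388R and WT PR-A cells, which overlapped.

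HSD11B2 (chr16:67429801-67437553) was also induced in both PR-A lines, but its level without hormone did not set T47D-Y apart. The level was 9.44 and 8.36 in R5020-treated PR-A K388R cells, against 5.33 and 5.29 with vehicle. It was 8.91 and 9.07 in R5020-treated WT PR-A cells, against 4.35 and 5.10 with vehicle. In T47D-Y cells it was 5.11 and 5.33. The 4 treated arrays were all above the 6 untreated ones. The response was 3.59 in PR-A K388R cells, or 12.1-fold (SE 0.32, 95% interval 2.87 to 4.32, limma adjusted p = 7.42e-04). It was 2.91 without the first R5020-treated PR-A K388R array and 4.27 without the second, and was called in both cases. The response was 4.26 in WT PR-A cells (SE 0.32, 95% interval 3.54 to 4.99, limma adjusted p = 5.34e-05). The first vehicle array of that line lay under its median, and with it raised to the median the mean response was 17.6-fold. This is a lower limit with respect to background only, and the 95% interval reaches below it.

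The K388R response of HSD11B2 minus the WT response was -0.67 (95% interval -1.70 to 0.36, limma adjusted p = 0.666). The second array of R5020-treated PR-A K388R cells set its sign, since the difference was 0.0084 without it. With unmoderated variances the K388R response of HSD11B2 was not called (adjusted p = 0.188). In vehicle-treated cells HSD11B2 differed from T47D-Y by 0.09 in PR-A K388R cells (limma adjusted p = 0.911) and by -0.49 in WT PR-A cells (limma adjusted p = 0.477), and neither passed the test. PR-A K388R minus WT PR-A was 0.58 in vehicle-treated cells (limma adjusted p = 0.322) and -0.09 in R5020-treated cells (limma adjusted p = 0.894).

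The alpha subunit of ENaC, SCNN1A (chr12:6346847-6377359), was abundant on every array, and its response to R5020 was not called in either line. Its level was 10.77 and 10.62 in R5020-treated and 10.15 and 10.22 in vehicle-treated PR-A K388R cells. In WT PR-A cells it was 9.59 and 9.82 with R5020 and also 9.59 and 9.82 with vehicle. T47D-Y cells had 10.46 and 10.08. The response was 0.50 in PR-A K388R cells (95% interval 0.16 to 0.85, limma adjusted p = 0.213), where the treated arrays lay above the untreated ones. In WT PR-A cells it was 0.00 (95% interval -0.35 to 0.35, limma adjusted p = 1.00), and neither was called. The K388R response minus the WT response was 0.50 (95% interval 0.01 to 1.00, limma adjusted p = 0.403), which was not called. With R5020, SCNN1A was 0.99 higher in PR-A K388R than in WT PR-A cells, or 1.98-fold (SE 0.16, 95% interval 0.64 to 1.34, limma adjusted p = 0.00257). With vehicle the same difference was 0.48 (95% interval 0.13 to 0.83, limma adjusted p = 0.086), which was not called. Against T47D-Y, SCNN1A in WT PR-A cells differed by -0.56 with vehicle (limma adjusted p = 0.0507). With R5020 it differed there by -0.56 (limma adjusted p = 0.0349), which is under the minimum fold. In PR-A K388R cells the difference from T47D-Y was -0.08 with vehicle (limma adjusted p = 0.821) and 0.43 with R5020 (limma adjusted p = 0.131), and neither was called.

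SCNN1B (chr16:23278231-23381294), the beta subunit, differed mainly between the lines. Its level was 9.42 and 8.70 in R5020-treated PR-A K388R cells, against 8.03 and 7.58 with vehicle. It was 6.30 and 6.85 in R5020-treated WT PR-A cells, against 5.62 and 5.95 with vehicle, and 6.72 and 6.99 in T47D-Y cells. All 4 PR-A K388R arrays lay above all other arrays, and the vehicle-treated WT PR-A arrays were the lowest. In vehicle-treated cells SCNN1B was higher in PR-A K388R than in WT PR-A by 2.02, or 4.06-fold (SE 0.27, 95% interval 1.42 to 2.62, limma adjusted p = 0.00132). In R5020-treated cells it was higher by 2.48, or 5.58-fold (SE 0.27, 95% interval 1.88 to 3.08, limma adjusted p = 3.18e-04).

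The summed signal of the fibroblast markers also moved with the groups. Of 6 fibroblast markers 3 were above the array median on every array. The summed linear signal of all 6 was 191 to 217 in R5020-treated and 291 to 312 in vehicle-treated PR-A K388R cells, 414 to 500 with R5020 and 761 to 887 with vehicle in WT PR-A, and 477 to 523 in T47D-Y cells. This sum followed COL1A1, with means of 6.45, 7.56, 8.43, 9.46 and 8.63 on the log2 scale in the same order, while COL1A2 had levels of 4.89 to 5.49, DCN 4.79 to 5.40, COL3A1 3.52 to 3.91 and LUM 2.34 to 2.62, and PDGFRB lay under the median of every array. COL1A1 was read here on the brightest of its 4 probe sets, and the others did not all share its change with R5020. In WT PR-A cells the change was -1.02 on the brightest and -0.86, -0.22 and 0.10 on the others. In PR-A K388R cells it was -1.11 on the brightest and -0.53, 0.06 and -0.01 on the others. The sum was lowest in PR-A K388R cells, where SCNN1B was highest, and its part in this result was not tested.

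The 2 lines lay on either side of the PR-negative cells in SCNN1B. Vehicle-treated PR-A K388R cells exceeded T47D-Y by 0.95 (95% interval 0.35 to 1.55, limma adjusted p = 0.0859), which was not called. Leaving out either R5020-treated PR-A K388R array gave a call, but both omissions amount to the same fit. They take out of the estimate of spread the group whose SCNN1B arrays differed most, so this call adds little. WT PR-A cells with vehicle had a lower level than T47D-Y, with a difference of -1.07, or 2.10-fold (95% interval -1.67 to -0.47, limma adjusted p = 0.0335). That call was lost without the first (limma adjusted p = 0.251) or second (limma adjusted p = 0.0795) WT PR-A vehicle array, and without the first (limma adjusted p = 0.0913) or second (limma adjusted p = 0.237) T47D-Y array. R5020-treated PR-A K388R cells exceeded T47D-Y by 2.20, or 4.61-fold (limma adjusted p = 0.00100), and R5020-treated WT PR-A cells differed from it by -0.28 (limma adjusted p = 0.627).

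Within a line, SCNN1B did not pass the test for R5020. The response was 1.25 in PR-A K388R cells, or 2.39-fold (SE 0.27, 95% interval 0.65 to 1.86, limma adjusted p = 0.0613), and 0.80 in WT PR-A cells, or 1.74-fold (SE 0.27, 95% interval 0.19 to 1.40, limma adjusted p = 0.124). The treated and untreated arrays did not overlap in either line. The first of these lay close to the threshold and was called in the fit without the replicate block (limma adjusted p = 0.0413). It was also called without the second R5020-treated PR-A K388R array. Leaving out either R5020-treated WT PR-A array gave a call as well, and both omissions amount to the same fit. Both responses were called when the arrays of one line were fitted alone (limma adjusted p = 9.08e-04 in PR-A K388R and 0.0107 in WT PR-A cells). Such a fit keeps the replicate block with 2 arrays a group, so few residual degrees of freedom are left to estimate the spread. The block there took up replicate differences that ran down in PR-A K388R and up in WT PR-A cells. These calls therefore add little to the main fit. The difference of the responses was 0.46 (95% interval -0.39 to 1.31, limma adjusted p = 0.746).

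ATP1B1 (chr1:169106690-169132719) was among the brightest genes, and its brighter probe set was higher in every PR-A group than in T47D-Y cells. That probe set had a level of 12.23 and 11.87 in R5020-treated and 12.30 and 11.87 in vehicle-treated PR-A K388R cells. WT PR-A cells had 11.98 and 12.38 with R5020, against 10.89 and 11.18 with vehicle. T47D-Y cells had 10.16 and 10.26. R5020-treated WT PR-A cells reached the level that PR-A K388R cells had with and without hormone. The response was 1.14 in WT PR-A cells, or 2.21-fold (SE 0.20, 95% interval 0.70 to 1.59, limma adjusted p = 0.00574), and -0.03 in PR-A K388R cells (95% interval -0.48 to 0.42, limma adjusted p = 0.982).

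The call in WT PR-A cells was lost without the first vehicle array (limma adjusted p = 0.0789), without the second R5020 array (limma adjusted p = 0.0546) and with unmoderated variances (adjusted p = 0.145). The difference of the responses was -1.17 (SE 0.28, 95% interval -1.80 to -0.54), with a limma adjusted p of 0.0863, or 0.0488 without the replicate block. Vehicle-treated cells differed between the lines: PR-A K388R exceeded WT PR-A by 1.05, or 2.06-fold (limma adjusted p = 0.00868), a call that was lost without the first array of either group (limma adjusted p = 0.0801 without that of PR-A K388R and 0.105 without that of WT PR-A). R5020-treated cells differed by -0.13 (limma adjusted p = 0.736).

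Against T47D-Y, the brighter probe set was higher by 1.84 in R5020-treated PR-A K388R cells (limma adjusted p = 5.34e-04), by 1.87 in vehicle-treated PR-A K388R cells (3.65-fold, limma adjusted p = 9.00e-04), by 1.97 in R5020-treated WT PR-A cells (limma adjusted p = 1.23e-04) and by 0.82 in vehicle-treated WT PR-A cells (limma adjusted p = 0.0282). The last call was lost when any single array of the 2 groups was left out (limma adjusted p = 0.0613 to 0.242).

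The dimmer ATP1B1 probe set showed smaller differences. Its level was 9.40 and 9.47 in R5020-treated and 9.62 and 9.55 in vehicle-treated PR-A K388R cells, 9.59 and 9.11 with R5020 and 9.11 and 9.26 with vehicle in WT PR-A, and 8.66 and 8.99 in T47D-Y cells. Its response was -0.14 in PR-A K388R cells (limma adjusted p = 0.859) and 0.16 in WT PR-A cells (limma adjusted p = 0.738), so that the probe sets of this gene disagree on the response of WT PR-A cells. It was higher in vehicle-treated PR-A K388R than in T47D-Y cells by 0.76, or 1.69-fold (limma adjusted p = 0.0391), a call that was lost when any one of 8 arrays was left out (limma adjusted p = 0.0588 to 0.305) and with the arrays of those groups fitted alone (limma adjusted p = 0.0562). In vehicle-treated cells its K388R minus WT difference was 0.40 (limma adjusted p = 0.200).

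**Figure D2:**
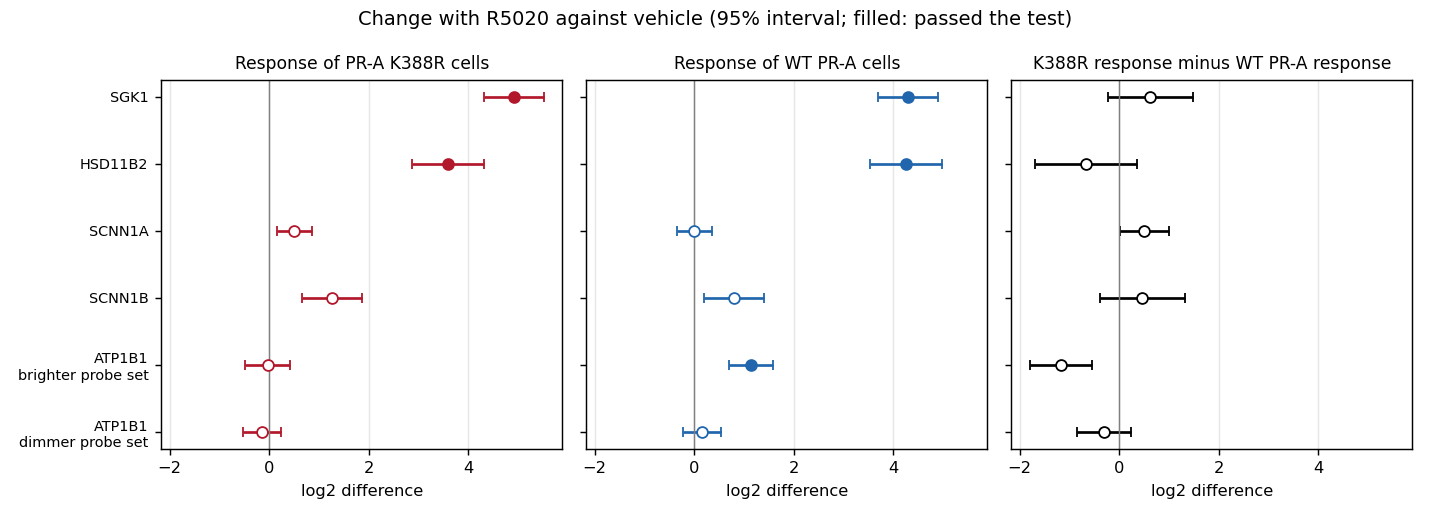
Change with R5020 against vehicle on the log2 scale (horizontal axis) of each member probe set in PR-A K388R cells, in WT PR-A cells, and the first minus the second, with 95% intervals from limma; filled points passed the test. SGK1 and HSD11B2 passed in both lines, the brighter ATP1B1 probe set passed in WT PR-A cells, and no probe set passed for the difference.

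Counted together, 2 of the 6 member probe sets were higher with R5020 in PR-A K388R cells, where 1.01% of all probe sets were called higher, and 3 of 6 in WT PR-A cells, where 3.63% were. The members and the gene lists below were chosen with earlier results of these data known. Their counts beside the shares of all probe sets are therefore a description and no test of the sets. No member was called for the difference of the responses, for which 1.47% of all probe sets were called in either direction. There, 2 of the 6 had an unadjusted p under 0.05 in limma, SCNN1A and the brighter probe set of ATP1B1, and 1 was called without the replicate block. In vehicle-treated cells 2 of 6 were higher in PR-A K388R than in WT PR-A cells (2.71% of all), and with R5020 it was 2 of 6 (3.27% of all).

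Against T47D-Y cells, SGK1 was left out of the counts. Of the other 5 probe sets, 3 were higher in R5020-treated PR-A K388R cells (2.3% of all), 2 in vehicle-treated PR-A K388R cells (1.06% of all) and 2 in R5020-treated WT PR-A cells (5.99% of all). In vehicle-treated WT PR-A cells 1 was higher (3.72% of all) and 1 was lower (3.55% of all). With unmoderated variances no member was called between the lines, for the response of PR-A K388R cells, or against T47D-Y except in R5020-treated WT PR-A cells. These comparisons share arrays, and comparisons of treated cells with T47D-Y differ in the receptor and in the hormone at once.

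The kinase SGK1 acts within a larger pathway, of which 11 of 22 listed genes, SGK1 itself among them, had a probe set in the table. Of these, 3 were higher with R5020 in PR-A K388R cells (1.01% of all probe sets; median of the 11, 0.11, against 0.00 for all) and 5 in WT PR-A cells (3.63% of all; median 0.39, against -0.01). None was lower in either line, where 0.391% of all probe sets were lower in PR-A K388R and 2.77% in WT PR-A cells. SGK1 itself is counted among those called higher in each line. NDRG1, a substrate whose phosphorylation is used as a readout of SGK1 activity, was 9.51 and 8.94 with R5020, against 6.28 and 6.08 with vehicle, in PR-A K388R cells. In WT PR-A cells NDRG1 was 7.69 and 7.62 with R5020, against 6.07 and 6.28 with vehicle. It rose in both lines, by 3.04 in PR-A K388R cells (limma adjusted p = 4.15e-04) and by 1.48 in WT PR-A cells (limma adjusted p = 0.00303). The difference was 1.56 (SE 0.33, 95% interval 0.83 to 2.29, limma adjusted p = 0.0516), and 0.0311 without the replicate block.

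FOXO1, a transcription factor that SGK1 and AKT exclude from the nucleus by phosphorylation, rose only in WT PR-A cells by the test. Its brighter probe set was 5.96 and 6.22 with R5020, against 5.91 and 5.73 with vehicle, in PR-A K388R cells, and 7.84 and 7.88 with R5020, against 5.96 and 5.80 with vehicle, in WT PR-A cells. The response was 0.27 in PR-A K388R cells (limma adjusted p = 0.493) and 1.98 in WT PR-A cells (limma adjusted p = 2.56e-05), and the difference of -1.71 passed the test (SE 0.18, limma adjusted p = 0.00463). STK39, a kinase that activates sodium-chloride cotransporters, rose by 0.97 in PR-A K388R cells (limma adjusted p = 0.0102) and by 0.85 in WT PR-A cells (limma adjusted p = 0.00384). The first of these calls was lost without either vehicle-treated PR-A K388R array (limma adjusted p = 0.0715 and 0.0907) or without the second R5020-treated one (limma adjusted p = 0.0881). PDPK1, the kinase that activates SGK1, changed by 0.11 in PR-A K388R cells (limma adjusted p = 0.825) and rose by 0.67 in WT PR-A cells (limma adjusted p = 0.00377), a rise that was not called without the second vehicle-treated WT PR-A array (limma adjusted p = 0.0539). NEDD4L, SGK2 and SGK3 were not analysed here.

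Around HSD11B2, all 5 listed genes of corticosteroid receptors and cortisol-cortisone conversion were measured, of which 1 was higher with R5020 in PR-A K388R cells (1.01% of all; median 0.09, against 0.00 for all probe sets) and 2 in WT PR-A cells (3.63% of all; median 0.09, against -0.01). HSD11B2 itself is counted among the 5 and was the gene called in PR-A K388R cells. In WT PR-A cells the gene called besides HSD11B2 was NR3C2, the mineralocorticoid receptor, which was dim throughout. NR3C2 was 4.02 and 4.07 with R5020 and 4.11 and 3.80 with vehicle in PR-A K388R cells, a change of 0.09 (limma adjusted p = 0.942). In WT PR-A cells it was 4.44 and 4.92 with R5020, against 3.77 and 3.96 with vehicle, a rise of 0.82 (limma adjusted p = 0.0278) that was lost without either vehicle array (limma adjusted p = 0.229 and 0.0870) or without the second R5020 array (limma adjusted p = 0.214). The glucocorticoid receptor NR3C1 had a mean level between 3.55 and 3.90 in the 5 groups, below the array medians. Its response was 0.30 in PR-A K388R cells (limma adjusted p = 0.436) and -0.14 in WT PR-A cells (limma adjusted p = 0.675). HSD11B1, the enzyme that regenerates cortisol, changed by 0.07 in PR-A K388R cells (limma adjusted p = 0.929) and by 0.09 in WT PR-A cells (limma adjusted p = 0.829).

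Among genes induced by corticosteroids in many cell types, 6 of 9 were measured, SGK1 among them. With R5020, 4 were higher in PR-A K388R cells (1.01% of all; median 1.26, against 0.00 for all probe sets) and 5 in WT PR-A cells (3.63% of all; median 2.32, against -0.01). FKBP5, a co-chaperone of steroid receptors, was 9.66 and 9.62 with R5020, against 6.04 and 6.12 with vehicle, in PR-A K388R cells, and 9.87 and 9.85 with R5020, against 6.27 and 6.37 with vehicle, in WT PR-A cells. It rose by 3.56 in PR-A K388R cells (limma adjusted p = 5.49e-07) and by 3.54 in WT PR-A cells (limma adjusted p = 5.82e-07). KLF9, a transcription factor, rose by 1.83 in PR-A K388R cells (limma adjusted p = 0.0116) and by 2.21 in WT PR-A cells (limma adjusted p = 7.28e-04) on the brightest of its 3 probe sets. A further probe set of KLF9 rose by 2.78 in PR-A K388R cells (limma adjusted p = 4.15e-04) and by 3.10 in WT PR-A cells (limma adjusted p = 3.26e-05). The dimmest disagreed, with responses of 0.20 in the PR-A K388R line and 0.076 in the WT PR-A line, neither of them called. The call of the brightest in PR-A K388R cells was lost without either vehicle array (limma adjusted p = 0.0984 and 0.0893) or the first R5020 array (limma adjusted p = 0.128).

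CEBPD and DUSP1, a transcription factor and a phosphatase of MAP kinases, were both called in WT PR-A cells and not in PR-A K388R cells. CEBPD was 8.84 and 8.49 with R5020, against 8.05 and 8.07 with vehicle, in PR-A K388R cells, and 10.75 and 10.61 with R5020, against 8.15 and 8.34 with vehicle, in WT PR-A cells. Its response was 0.60 in PR-A K388R cells (limma adjusted p = 0.126) and 2.43 in WT PR-A cells (limma adjusted p = 2.43e-05), with a difference of -1.83 (SE 0.22, limma adjusted p = 0.00651). DUSP1 on its brighter probe set responded by 0.46 in PR-A K388R cells (limma adjusted p = 0.263) and 1.87 in WT PR-A cells (limma adjusted p = 8.02e-05), with a difference of -1.41 (SE 0.22, limma adjusted p = 0.0159). The DUSP1 difference was not called without the first array of any one of the 4 PR-A groups (limma adjusted p = 0.0564 to 0.0853). ZBTB16, a zinc finger transcription factor, rose by 0.70 in PR-A K388R cells (limma adjusted p = 0.0191), a call lost without any one of the 4 PR-A K388R arrays (limma adjusted p = 0.0715 to 0.159), and changed by 0.23 in WT PR-A cells (limma adjusted p = 0.354).

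**Figure D3:**
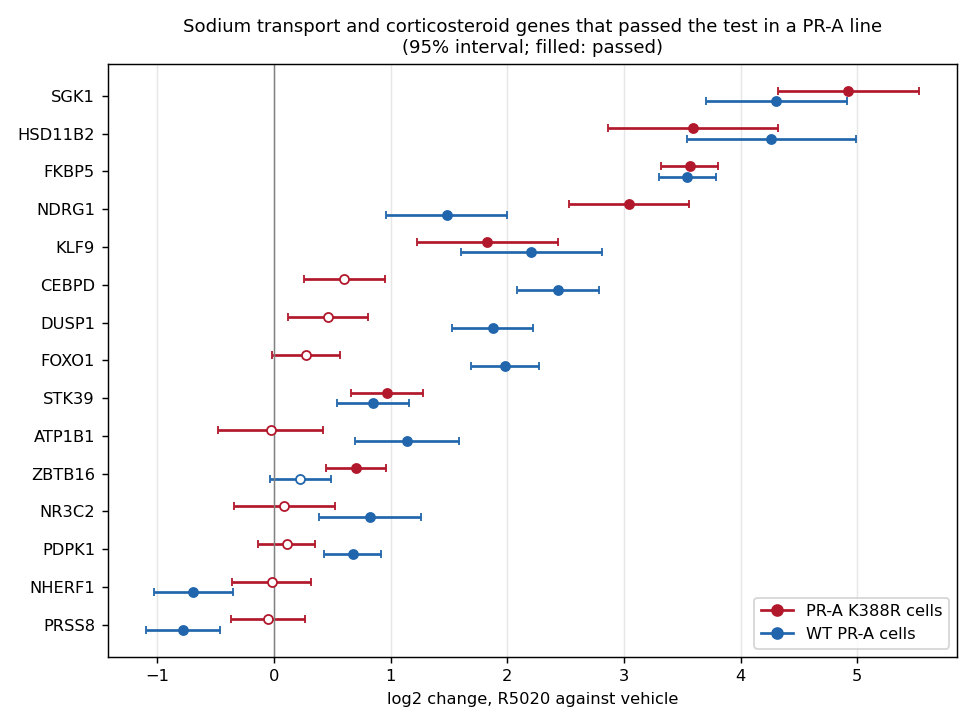
Change with R5020 against vehicle on the log2 scale (horizontal axis) in PR-A K388R and WT PR-A cells, with 95% intervals from limma, of the listed sodium transport and corticosteroid genes whose brightest probe set passed the test in at least 1 of the lines; filled points passed. SGK1, HSD11B2 and FKBP5 have the largest responses in both lines, and FOXO1, CEBPD and DUSP1 lie well to the right in WT PR-A cells only.

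Of the ENaC subunits with the proteases and inhibitors that act on them, 6 of 11 were measured, and SCNN1G and SCNN1D were not analysed here. None was called with R5020 in PR-A K388R cells (median 0.19, against 0.00 for all probe sets), where SCNN1A and SCNN1B had an unadjusted p under 0.05 in limma, and 1 was lower in WT PR-A cells (2.77% of all; median -0.12, against -0.01). This was PRSS8, or prostasin, a membrane protease that activates ENaC by cleavage. PRSS8 was 9.47 and 9.55 with R5020 and 9.44 and 9.68 with vehicle in PR-A K388R cells, a change of -0.05 (limma adjusted p = 0.955). In WT PR-A cells it was 9.77 and 9.76 with R5020, against 10.52 and 10.56 with vehicle, and fell by 0.78 (limma adjusted p = 0.00730), a call lost without either vehicle array (limma adjusted p = 0.0575 and 0.0688). Of the other transporters of the nephron, 6 of 15 were measured. With R5020 none was called in PR-A K388R cells (median 0.00) and 1, NHERF1, was lower in WT PR-A cells (2.77% of all; median -0.14). SLC12A2 changed by -0.38 in PR-A K388R cells (limma adjusted p = 0.294). In WT PR-A cells it changed by -0.55 (limma adjusted p = 0.0321), which is under the minimum fold. Its mean was 7.08 with R5020 and 7.46 with vehicle in PR-A K388R, 7.27 and 7.82 in WT PR-A, and 7.95 in T47D-Y cells. NHERF1, a scaffold of the sodium-proton exchanger, changed by -0.02 in PR-A K388R cells (limma adjusted p = 0.982) and fell by 0.69 in WT PR-A cells (limma adjusted p = 0.0193), a call lost without any one of the 4 WT PR-A arrays (limma adjusted p = 0.0673 to 0.175).

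Of the Na,K-ATPase subunits and their FXYD regulators, 5 of 14 were measured. On the brightest probe set of each, ATP1B1 was higher in WT PR-A cells (3.63% of all) and none was called in PR-A K388R cells (median of the 5, -0.03 in PR-A K388R cells and 0.00 in WT PR-A cells). ATP1B2, another beta subunit, changed by -0.31 in PR-A K388R cells (limma adjusted p = 0.410) and by -0.19 in WT PR-A cells (limma adjusted p = 0.520). FXYD3 encodes a small membrane protein that modulates the pump. On its brighter probe set it was higher in PR-A K388R than in WT PR-A cells and highest in T47D-Y cells. Its brighter probe set was 11.27 and 10.96 in R5020-treated and 11.01 and 10.91 in vehicle-treated PR-A K388R cells, 8.88 and 9.01 with R5020 and 9.23 and 9.42 with vehicle in WT PR-A, and 11.34 and 11.43 in T47D-Y cells. In vehicle-treated cells this probe set was higher in PR-A K388R than in WT PR-A by 1.63 (limma adjusted p = 9.78e-05), and WT PR-A minus T47D-Y was -2.06 (limma adjusted p = 2.25e-05). The dimmer probe set was instead highest in R5020-treated PR-A K388R cells, with a mean of 9.84 against 9.48 in T47D-Y cells. The probe sets of FXYD3 disagreed on R5020: the brighter one changed by 0.16 in PR-A K388R (limma adjusted p = 0.782) and by -0.38 in WT PR-A cells (limma adjusted p = 0.158). The dimmer one rose by 0.68 in PR-A K388R cells (limma adjusted p = 0.0276) and changed by -0.30 in WT PR-A cells (limma adjusted p = 0.216), with a difference of 0.98 (limma adjusted p = 0.0277). The rise was not called without any one of 7 arrays (limma adjusted p = 0.0507 to 0.221), nor the difference without any one of 9 (limma adjusted p = 0.0509 to 0.123).

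The genes with the most similar pattern to each member were taken as those with the highest Pearson correlation of the 5 group means, among 1410 probe sets with 1 symbol whose group means ranged over at least 1 on the log2 scale. With 5 points that share their arrays, these correlations are a description. SGK1 was followed most closely by PRKAB2 (r = 0.996), TUBB2A (r = 0.974) and CHPT1 (r = 0.969). PRKAB2, a beta subunit of AMP-activated kinase, averaged 7.62 in R5020-treated and 5.62 in vehicle-treated PR-A K388R cells, 7.53 with R5020 and 5.54 with vehicle in WT PR-A, and 6.46 in T47D-Y cells. It thus shared with SGK1 an intermediate level in the PR-negative line. HSD11B2 was followed by F3 (r = 0.995), which encodes tissue factor, STAT5A (r = 0.994) and LLGL2 (r = 0.990).

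SCNN1A was followed by SIVA1 (r = 0.977), the dimmer probe set of FXYD3 (r = 0.970) and BATF (r = 0.965), and SCNN1B by DIO2 (r = 0.984), KCNN4 (r = 0.980) and ALCAM (r = 0.973). KCNN4, a calcium-activated potassium channel, averaged 7.10 in R5020-treated and 6.33 in vehicle-treated PR-A K388R cells, 4.77 with R5020 and 4.37 with vehicle in WT PR-A, and 5.54 in T47D-Y cells. DIO2 and ALCAM were dimmer than the array medians in every group. The brighter ATP1B1 probe set was followed by EDN1 (r = 1.00), the gene of endothelin-1, with averages of 6.29 and 6.31 in R5020-treated and vehicle-treated PR-A K388R cells, 6.36 and 5.78 in R5020-treated and vehicle-treated WT PR-A cells, and 5.31 in T47D-Y cells. UBE3C (r = 0.926) and MPV17L (r = 0.917) came next. For the dimmer ATP1B1 probe set the nearest were CCL20 (r = 0.960), ADORA2B (r = 0.951) and EDN1 (r = 0.941).

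**Figure D4:**
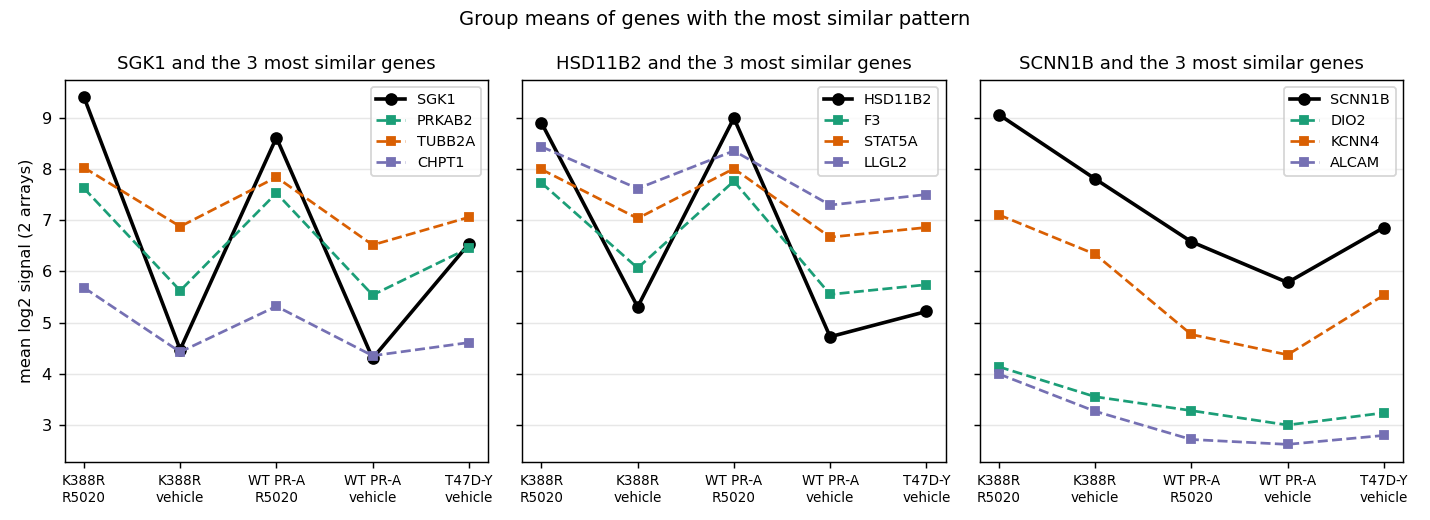
Mean log2 signal of 2 arrays (vertical axis) in the 5 groups for SGK1, HSD11B2 and SCNN1B (black circles) and the 3 genes whose group means correlated best with each (coloured squares). PRKAB2 takes the same order of groups as SGK1 over a smaller range, 5.54 to 7.62, and KCNN4 follows SCNN1B in being highest in PR-A K388R cells.

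Array medians were 4.59 to 4.69, and arrays correlated at r = 0.996 to 0.997 within groups and 0.977 to 0.993 between them, over all probe sets. Of the luminal epithelial markers, 6 of the 7 measured were above the array median on every array, all but TFF1. The renal collecting duct marker AQP2 had levels of 5.87 to 6.23 and CALB1 2.67 to 3.06. Of 3 leukocyte markers none was above the median on every array. No marker can be read as 0 on these arrays.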

How the data were processed

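Expression was measured on 10 arrays of T47D cells, 2 per group. The authors normalized the raw data in Partek Genomics Suite and deposited 1 table of log2 signals per probe set. The method of normalization and background correction is not given in the sources used here, and the log2 scale was read from the range of the values. The table used here held 16376 probe sets, of which 12547 had 1 symbol, 457 had several and 3372 were not listed in the platform annotation; 12528 matched a gene of GRCh38.p14. Values were used as deposited. Culture medium and RNA kit differ between the labels and the study's methods.

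For each probe set the differences of replicate 2 from replicate 1 cancelled across the 5 groups (sum at most 0.0003 in size), so the replicate number had been removed from the values. The model in limma 3.58.1 (R 4.3.3) therefore had a mean per group and the replicate number as a block, leaving 4 residual degrees of freedom (5.62 prior). Without the block the fit counts 1 degree of freedom too many (5 residual, 4.35 prior). Correlations of replicate differences between groups were -0.511 to -0.013 over 10 pairs, which the removal forces below 0, so they do not test pairing. All probe sets were tested in 9 comparisons, with Benjamini-Hochberg adjustment within each. The adjusted p under 0.05 and the minimum fold of 1.5 follow the study's methods. Alternatives were no block, an intensity trend, unmoderated variances, quantile normalization, median centring, a table without its dimmest 40%, a minimum fold of 2, the compared groups alone, and each array left out. The number of arrays limits the precision. Fits of 2 compared groups alone kept the block and left few residual degrees of freedom to estimate the spread. A floor at each array's median, chosen after seeing the data, served only to state folds of dim members as limits. These limits concern background and not the spread of the arrays. The scripts were tested on simulated data.

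The members and gene lists were chosen with earlier results of these data known. Named were all member probe sets, up to 4 called genes per list with the smallest adjusted p, the paralogs and partners of members, and the 3 genes nearest each member in group means. The brightest of several probe sets stood for a gene in a list. Sequences are from RefSeq (GRCh38.p14).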

Additional observations from a re-analysis of the deposited data

Results flagged for a closer look

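With 2 arrays per group, no single array could be tested as an outlier. Of the listed genes, 4 were picked out because their R5020 response differed between the PR-A lines by a test of the difference itself. PR-A K388R minus WT PR-A was -1.71 for the brighter FOXO1 probe set, -1.41 for the brighter DUSP1 probe set and -1.83 for CEBPD on the log2 scale, and 0.98 for the dimmer FXYD3 probe set. These differences were not called on the other probe set of the same gene, where PR-A K388R minus WT PR-A was -0.54 for FOXO1 (limma adjusted p = 0.645), -0.61 for DUSP1 (limma adjusted p = 0.256) and 0.54 for FXYD3 (limma adjusted p = 0.288). The responses of the dimmer FOXO1 and DUSP1 probe sets were not called in either line: that of FOXO1 changed by 0.15 in PR-A K388R and 0.69 in WT PR-A cells, and that of DUSP1 by -0.15 in PR-A K388R and 0.46 in WT PR-A cells.

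Of the members, 2 probe sets were picked out because vehicle-treated cells of the PR-A lines differed from each other, again by a direct test. This is the comparison of the lines given above, in which the level of T47D-Y cells cancels. PR-A K388R minus WT PR-A was 2.02 for SCNN1B and 1.05 for the brighter ATP1B1 probe set. As each receptor form was 1 line, the mutation and the line cannot be told apart in either result.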

How the results depend on the processing

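Of 1725 values of members and listed genes recomputed under 18 alternatives per comparison, 1558 kept their direction and their side of the threshold, 104 were no longer called, 34 became called, 25 changed sign and 4, all SGK1 differences from T47D-Y, moved by more than the spread of replicates. None of the 25 was called after the change. The alternatives include every single array left out, and with 2 arrays a group this leaves 1, whose spread is taken from the other groups.

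With unmoderated variances the count of members called was 0, against 2 or 3 with limma's moderated variances, for the K388R response, for vehicle-treated PR-A K388R and WT PR-A cells against T47D-Y, for vehicle-treated PR-A K388R against WT PR-A cells, and for R5020-treated PR-A K388R cells against either T47D-Y or WT PR-A cells. Over all probe sets, the same setting called 2 instead of 230 for the K388R response, 310 instead of 1049 for the WT response, 0 instead of 241 for their difference, 17 instead of 550 and 378 instead of 1192 for vehicle-treated PR-A K388R and WT PR-A cells against T47D-Y, 383 instead of 1216 for the lines compared in vehicle, and 235 instead of 1029 and 1040 instead of 1860 for R5020-treated PR-A K388R and WT PR-A cells against T47D-Y, and 650 instead of 1459 for R5020-treated PR-A K388R against WT PR-A cells. A minimum fold of 2 left 1 member called for either PR-A line with vehicle against T47D-Y and 1 for R5020-treated PR-A K388R against WT PR-A cells, and by its construction lowered the counts over all probe sets by over 1.5 times in each comparison except the difference of the responses. Fitting the compared groups alone left 1 for vehicle-treated PR-A K388R cells against T47D-Y.

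Without the replicate block, 1 member instead of 0, the brighter ATP1B1 probe set, was called for the difference of the responses, as with an intensity trend (1), and the calls over all probe sets were 526 without the block and 435 with the trend, against 241. The block moved no other count of members by over 1.5 times. That difference had 160 calls with the compared groups alone and 73 to 160 without one of 9 arrays, and the K388R response 56 to 149 without one of 6. Vehicle-treated PR-A K388R cells had 245 calls against T47D-Y without the second PR-A K388R array and 202 or 264 without the first or second T47D-Y array. The lines compared in vehicle had 722 without the first WT PR-A array, and R5020-treated PR-A K388R cells had 602 against T47D-Y without their first array and 576 without the first T47D-Y array.

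With 1 array left out, the members called ranged over 2 to 3 for the K388R response, 2 to 3 for the WT response, 0 for their difference, 1 to 2 for vehicle-treated PR-A K388R and 0 to 2 for vehicle-treated WT PR-A cells against T47D-Y, 1 to 2 for vehicle-treated PR-A K388R against WT PR-A cells, 3 to 4 for R5020-treated PR-A K388R and 2 to 4 for R5020-treated WT PR-A cells against T47D-Y, and 2 to 3 for R5020-treated PR-A K388R against WT PR-A cells. The sign of some uncalled values also depended on 1 array. The WT response of SCNN1A ranged from -0.14 to 0.14 (-0.022 after quantile normalization) and that of the dimmer ATP1B1 probe set from -0.14 to 0.46. The K388R response ranged from -0.30 to 0.24 for the brighter ATP1B1 probe set, -0.20 to 0.10 for PRSS8, -0.10 to 0.28 for NR3C2 and -0.21 to 0.16 for NHERF1. The difference of the responses ranged from -1.35 to 0.0084 for HSD11B2, -0.069 to 0.32 for STK39 and -0.039 to 0.082 for FKBP5. Vehicle-treated PR-A K388R cells against T47D-Y gave -0.051 to 0.23 for HSD11B2 and -0.31 to 0.15 for SCNN1A, and against WT PR-A cells -0.39 to 0.73 for SGK1. R5020-treated WT PR-A cells against T47D-Y gave -0.62 to 0.069 for SCNN1B. R5020-treated PR-A K388R against WT PR-A cells gave -0.77 to 0.59 for HSD11B2, -0.38 to 0.12 for the brighter and -0.21 to 0.39 for the dimmer ATP1B1 probe set. SGK1 differed from T47D-Y by 2.52 to 3.21 in R5020-treated PR-A K388R cells and by -2.79 to -1.68 in vehicle-treated WT PR-A cells. The cause of these changes was not tested. Levels near or under the array medians, such as those of NR3C1, NR3C2 and ZBTB16, of SGK1 in vehicle-treated cells of both PR-A lines and of HSD11B2 in vehicle-treated WT PR-A cells, have little signal over background on these arrays.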
